A study of Mus musculus with 4 samples.

Results

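The 9 genes described here belong to the circuit between the RNA-binding protein LIN28 and the let-7 family of microRNAs in mouse embryonic stem cells. They are Lin28a and Lin28b, the let-7 target gene Trim71, and the oncofetal genes Hmga1, Hmga2, Igf2bp1, Igf2bp2, Igf2bp3 and Mycn. Oncofetal genes are active in embryos and many tumours and mostly lower in adult tissues. The 9 genes were picked by symbol, for what is known of the circuit, from 23366 gene symbols in the read-count files. All 9 were present, and all 9 were among the 13199 genes with enough reads to test. The RNA came from R1 cells (strain 129X1 x 129S1), kept on gelatin in medium with serum, serum replacement and LIF, the cytokine that sustains self-renewal. In the 2 knockdown libraries the cells had received a short hairpin against Cyrano, a long noncoding RNA, and in the 2 control libraries a non-targeting hairpin. Both groups carried the same vector (pSicoR-Ef1a-mCh-Puro) and had been enriched for it by puromycin or by flow cytometry. The labels do not say which of these served which library, nor whether the libraries of a group came from separate cultures, and the p-values then reflect only how far these libraries differ.

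LIN28A and LIN28B bind the loop of let-7 precursors. They block processing, and LIN28A calls in the uridylyl transferases TUT4 and TUT7, whose mark sends the precursor to the exonuclease DIS3L2. Mature let-7 in turn binds the 3′ UTRs of Lin28a and Lin28b and of the other genes here, so the circuit has opposing states: embryonic stem cells hold much LIN28 and little mature let-7, and differentiation brings the reverse. Cyrano carries a site for another microRNA, miR-7, and the series' title concerns a long noncoding RNA that moderates the activity of microRNAs.

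The let-7 family shares a seed, bases 2 to 8 of the mature microRNA, which pairs with its targets. Mature sequences from RefSeq (GRCm38.p6) are given 5′ to 3′ with the seed in capitals, to show what the family members share and how the seed of miR-7 differs. Of the 11 let-7 and miR-98 sequences matched by name, 10 had the seed GAGGUAG and 1, let-7j, had GAGGUAU. The loci shown are chr13:48538239-48538260 (minus strand) for let-7a, chr9:106178846-106178867 (plus) for let-7g, chrX:151913229-151913250 (plus) for miR-98, chr3:140028281-140028304 (plus) for let-7j and chr7:78888295-78888317 (plus) for miR-7a.
let-7a-5p: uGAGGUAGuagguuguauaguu
let-7g-5p: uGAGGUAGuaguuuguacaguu
miR-98-5p: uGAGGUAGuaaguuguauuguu
let-7j: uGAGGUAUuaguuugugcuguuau
miR-7a-5p: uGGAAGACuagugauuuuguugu

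Every one of the 9 genes had a let-7 seed match in its longest annotated 3′ UTR (GENCODE M21, GRCm38), read on the transcript strand. A match was CTACCTC, opposite bases 2 to 8, TACCTCA, opposite bases 2 to 7 followed by A, or both at once as the 8mer CTACCTCA, each place counted once. There were 31 matches, of which 13 were 8mers, 8 were CTACCTC alone and 10 were TACCTCA alone. Hmga2 held 7 in 3014 bases, Trim71 6 in 5512, Lin28b 5 in 4445 and Igf2bp1 5 in 6337. Lin28a, Igf2bp2 and Mycn held 2 each, and Hmga1 and Igf2bp3 1 each. Among 12617 tested genes with a 3′ UTR of at least 50 bases, 18.9% held a match and 0.135% held 5 or more. Among 3′ UTRs within 20% of the same length, 0.165% held as many as Hmga2, 0.478% as many as Trim71, 0.463% as many as Lin28b and 1.15% as many as Igf2bp1. For Mycn the share was 1.12%, for Igf2bp2 3.06% and for Lin28a 4.88%, whereas for Hmga1 (14.5%) and Igf2bp3 (24.6%) a single match was common at that length. The genes were chosen as let-7 targets, so these matches describe the choice. A match is only a run of letters, and binding was not measured.

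The sites below are the first let-7 8mer of the Lin28 genes and of the genes with most matches, both matches of Mycn, which has no 8mer, and the miR-7 match of Igf2bp3, the one 8mer for miR-7 in the set. All of these genes lie on the minus strand, and the sites are written on that strand. Capitals mark the seed match, and the position of its first base is counted from the start of the 3′ UTR. They stand at 909 in Lin28a (chromosome 4), 36 in Lin28b (10), 166 in Trim71 (9), 58 in Hmga2 (10), 1715 in Igf2bp1 (11), 501 and 872 in Mycn (12) and 1286 in Igf2bp3 (6).
Lin28a: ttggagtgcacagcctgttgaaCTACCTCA
Lin28b: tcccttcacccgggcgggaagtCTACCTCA
Trim71: aaagtacaacattgcctaagtcCTACCTCA
Hmga2: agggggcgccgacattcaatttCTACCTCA
Igf2bp1: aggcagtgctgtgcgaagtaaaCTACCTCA
Mycn, first: ttcacacctaagtactgtaagaaTACCTCA
Mycn, second: ctgcaccttagagcactttgaaaTACCTCA
Igf2bp3, miR-7: ggaagaattaagtccaccaaaaGTCTTCCA
Matches to the miR-7 seed, GTCTTCC or TCTTCCA, were found once each in Trim71, Hmga2, Igf2bp2 and Igf2bp3, the last as an 8mer, and in 28.4% of tested 3′ UTRs. In Lin28a, Lin28b, Hmga1, Igf2bp1 and Mycn these letters were not found.

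**Figure D1:**
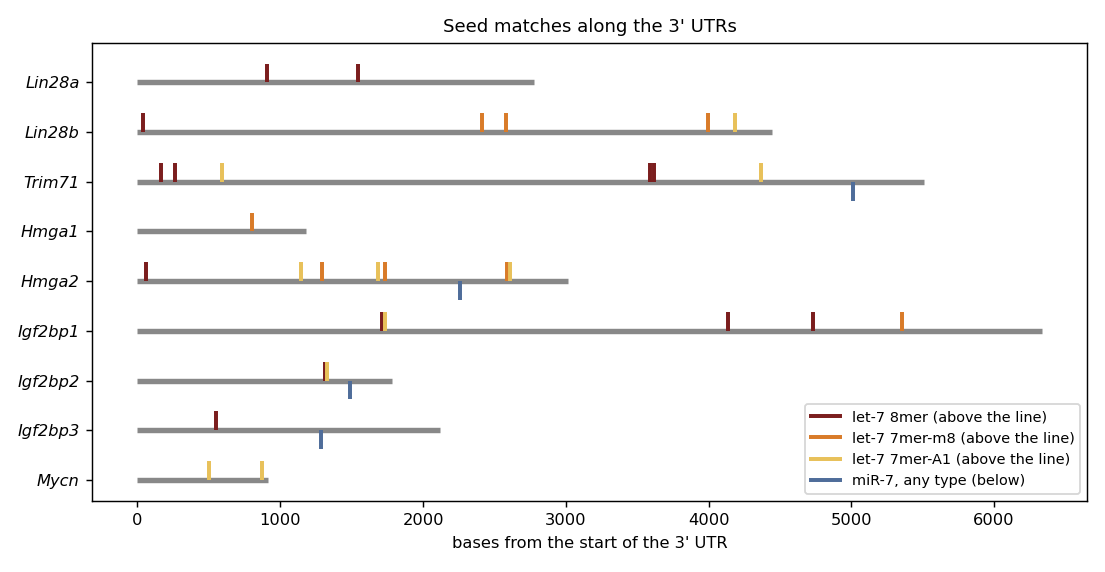
Seed matches along the longest annotated 3′ UTR of each gene, in bases from its start (grey line). Marks above the line are let-7 matches by type and marks below are miR-7 matches; Hmga2 has 7 let-7 matches, Trim71 6, and Lin28b and Igf2bp1 5 each.

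The knockdown was visible in the target. Cyrano, listed as 1700020I14Rik, had 3.99 and 3.16 CPM (read counts scaled to library size and composition) in the knockdown libraries, against 24.8 and 15.1 CPM in the controls. It fell 5.57-fold (log2 fold change -2.48 ± 0.30 SE, adjusted p = 0.00702 by edgeR's quasi-likelihood test with Benjamini-Hochberg adjustment over all 13199 genes), though it was not called without either control library. The 4 libraries held 16854403 to 22321102 gene counts. The ribosomal RNA precursor Rn45s took 12.3% and 11.0% of them in the knockdown libraries and 17.5% and 15.9% in the controls. Log2 fold changes also followed transcript length, with a median of 0.12 in the shortest of 5 equal groups of genes and -0.14 in the longest.

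The cells carried the marks of pluripotent cells in both groups. Pou5f1, which encodes the core factor OCT4, averaged 933 CPM in knockdown and 995 CPM in control libraries, and the 8 pluripotency markers together summed to 4287 and 4115 CPM in knockdown libraries and 4412 and 4621 CPM in controls. The sum covers unlike members: in 4 of the 8 the knockdown libraries lay below the controls without overlap and in 2 above, with 0 called by edgeR and 2 lower and 1 higher at an unadjusted p under 0.05. Of all 13199 tested genes, 21.3% lay lower and 22.3% higher without overlap, and 5.43% were lower and 6.18% higher at that p. Nanog, which encodes a pluripotency factor, had 129 and 133 CPM in knockdown libraries against 216 and 228 CPM in controls (log2 fold change -0.76 ± 0.14, edgeR adjusted p = 0.0696). The nuclear receptor gene Esrrb stood at -0.35 ± 0.14 (adjusted p = 0.38) and Dppa5a at 0.40 ± 0.16 (adjusted p = 0.35). These markers were picked after their values were seen. The 8 fibroblast and feeder markers summed to 49.5 and 22.4 CPM in knockdown libraries and 42.3 and 24.7 CPM in controls, most of it from Thy1, which had 48.0 and 20.4 CPM against 38.02 and 21.6 CPM. The matrix genes Col3a1, Dcn, Lum and Postn had 0 reads in every library, whereas Col1a1 had 18 and 33 reads in knockdown libraries and 41 and 38 in controls, Col1a2 11 and 4 against 6 and 11, and Acta2 5 and 7 against 23 and 10. The summed primitive endoderm markers reached 162 and 200 CPM in knockdown libraries, against 99.8 and 119 CPM in controls, and 6 of the 7 tested had both knockdown libraries above both controls. Of these 7, 5 had an unadjusted p under 0.05, all higher, and none was called. The shares of all tested genes were 22.3% higher without overlap and 6.18% higher at that p. Neural markers summed to 169 and 185 CPM in knockdown libraries and 171 and 209 CPM in controls. Most came from Tubb3, with 90.4 and 129 CPM against 122 and 162 CPM, and this sum too covers unlike members. Of the 5 tested, 2 lay higher and 1 lower without overlap. At an unadjusted p under 0.05 Nes was higher (0.74 ± 0.24 on the log2 scale) and Pax6 lower (-1.10 ± 0.48), and none was called. Mesoderm markers summed to 27.0 and 19.7 CPM in knockdown libraries against 32.7 and 15.2 CPM in controls. The part of such cells in the values given here was not tested. In bulk RNA, a change in the share of cells of a type and a change in RNA per cell cannot be told apart.

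Set per kilobase of the longest annotated transcript, the 9 genes spanned a wide range of levels (CPM per kb, mean ± SD, n = 2). Igf2bp1 stood at 97.8 ± 12.0 in knockdown and 95.6 ± 14.3 in control libraries, and Lin28a at 80.1 ± 16.8 and 95.4 ± 16.4. In controls both lay above 95.6% of tested genes, and their ranges overlapped each other. Mycn followed at 65.4 ± 0.886 in knockdown and 47.3 ± 8.64 in control libraries, then Trim71 at 33.3 ± 5.73 and 37.4 ± 7.46. Mycn and Trim71 overlapped in controls and not after knockdown. Igf2bp2, at 13.8 ± 0.232 and 14.4 ± 1.39, and Igf2bp3, at 11.4 ± 0.619 and 12.5 ± 0.655, lay close together, and their ranges did not overlap in either group. Below them Hmga2 stood at 9.60 ± 1.85 in knockdown and 6.04 ± 1.68 in control libraries, and Hmga1 at 6.16 ± 1.62 and 6.89 ± 0.707. Both overlapped in controls and not in knockdown libraries. Lin28b was the lowest, at 2.41 ± 0.344 and 1.94 ± 0.375, and lay above only 29.5% of tested genes in controls.

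**Figure D2:**
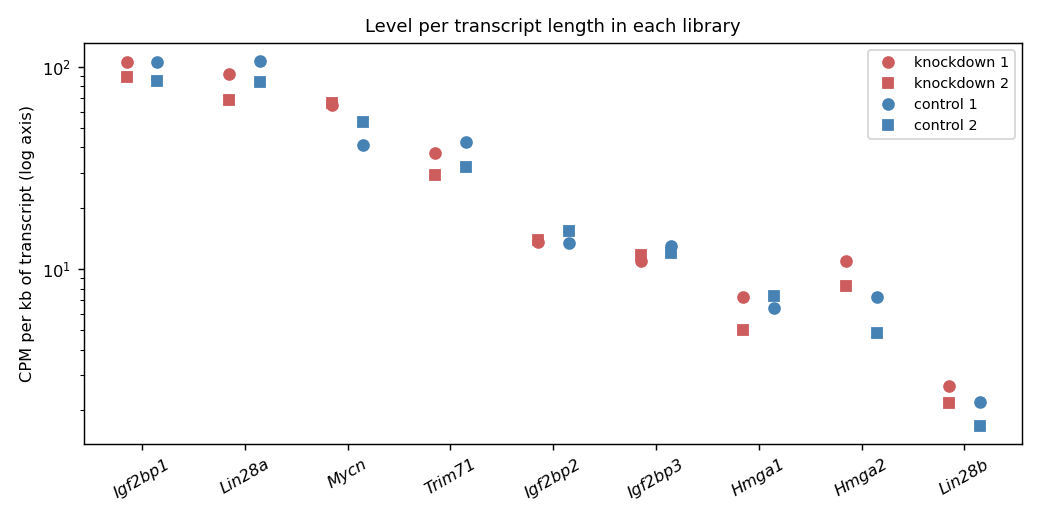
Level of each gene as CPM per kb of the longest annotated transcript, on a log axis, with one point per library and knockdown drawn left of control. Igf2bp1 and Lin28a lie highest in controls (95.6 and 95.4 on average), and Lin28b lies lowest at 1.94.

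The level of Hmga1 is uncertain. Of the 50-base stretches of its transcript, 69.1% also occur in transcripts of other genes, and reads with more than 1 alignment were left out of the counts. For the other 8 genes the shared part was at most 0.877% (Hmga2).

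None of the 9 genes passed the test. At an adjusted p under 0.05 edgeR called 0 of 9, where the background was 0.0833% of 13199 genes (0.0379% higher and 0.0455% lower), and DESeq2 and limma-voom called 0 of 9 as well. At an unadjusted p under 0.05 there were 2, Hmga2 and Mycn, both higher, by each of these tools, where 6.18% of all tested genes were higher and 5.43% lower at that level by edgeR. In 3 of the 9 the groups did not overlap, 2 higher (Hmga2 and Mycn) and 1 lower (Igf2bp3), where the background was 43.5% of genes in either direction (22.3% higher and 21.3% lower). Of the 9, 4 had a log2 fold change above 0 and 5 below, with a median of -0.06, and the median of all tested genes was -0.002. The intervals below are 95% intervals of the log2 fold change from that fit, and an exact permutation test on 2 libraries against 2 has 0.333 as its smallest p.

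**Figure D3:**
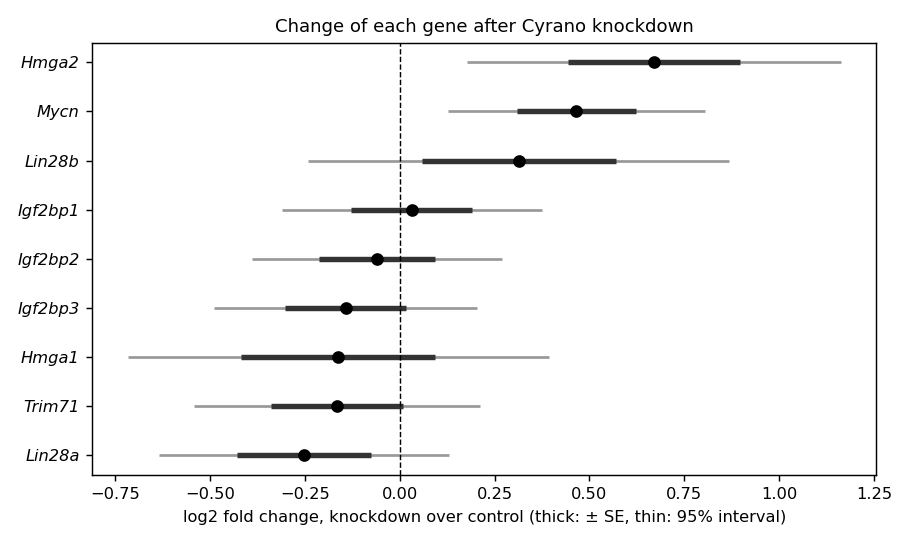
Log2 fold change of each gene, knockdown over control, from edgeR's quasi-likelihood fit on 2 libraries a group; the point is the estimate, the thick bar ± SE and the thin bar the 95% interval. The intervals of Hmga2 (0.18 to 1.16) and Mycn (0.13 to 0.81) lie above 0 before adjustment over all genes, and the other 7 include 0.

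Lin28a encodes the main LIN28 protein of mouse embryonic stem cells. It had 322 and 239 CPM in knockdown libraries and 375 and 294 CPM in control libraries. Knockdown library 1 lay above control library 2, so the groups overlapped. The log2 fold change was -0.25 ± 0.18 (SE; interval -0.63 to 0.13; edgeR adjusted p = 0.61).

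Lin28b, its paralog, known from human cells for a more nuclear location, was counted in 320 and 252 reads in knockdown libraries and 196 and 171 reads in control libraries. That is 14.3 and 11.7 CPM against 11.9 and 9.06 CPM. Knockdown library 2 fell just short of control library 1, and the exact Poisson intervals of these libraries, 10.3 to 13.2 CPM and 10.3 to 13.7 CPM, covered each other (they allow for counting error only). The log2 fold change was 0.31 ± 0.26 (interval -0.24 to 0.87; edgeR adjusted p = 0.67).

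Within each library the Lin28 paralogs can be set against each other without any scaling between libraries. The ratio of Lin28b to Lin28a per kb was 0.0289 and 0.0317 in knockdown libraries and 0.0206 and 0.0200 in control libraries, so that Lin28b made up a small part of the pair throughout. Both knockdown libraries had the higher ratio, by 0.58 on the log2 scale, for which a two-sided exact permutation p was 0.333, the least this design allows. This ratio was 1 of 6 computed with the values known. The others were Trim71 to Lin28a (log2 difference 0.10, exact p = 0.333), Hmga2 to Hmga1 (0.87, exact p = 0.333, with the level of Hmga1 uncertain) and the 3 ratios among the Igf2bp genes (0.09 to 0.18, exact p of 0.667 to 1).

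Trim71 encodes a ubiquitin ligase and RNA-binding repressor whose worm homolog, lin-41, is a founding let-7 target. It had 349 and 273 CPM in knockdown libraries against 398 and 299 CPM in controls. Library 1 was the higher of the pair in either group and the groups overlapped. The log2 fold change was -0.17 ± 0.17 (interval -0.54 to 0.21; edgeR adjusted p = 0.76). Corrected for the length and GC content of transcripts it was 0.08 ± 0.14, a turn in sign for a gene whose transcript, at 9332 bases, falls in the longest of the 5 length groups.

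Hmga2 encodes a chromatin protein that bends AT-rich DNA and is the classic let-7 target. It had 928 and 680 reads in knockdown libraries and 453 and 349 reads in control libraries, or 41.6 and 31.6 CPM against 27.6 and 18.5 CPM. Both knockdown libraries lay above both controls, and library 1 was the higher in either group. The log2 fold change, 0.67 ± 0.23 (interval 0.18 to 1.16; edgeR adjusted p = 0.28), was the largest of the 9 in size. Of all tested genes, 5.28% had a higher log2 fold change and 4.11% a lower p. It was 0.41 without control library 2, 0.45 without knockdown library 1 and 0.98 without control library 1, and with no filter on low counts its adjusted p was 0.0497. In the other edgeR, DESeq2 and limma-voom fits on group alone the adjusted p ran from 0.155 to 0.568.

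Hmga1, the more broadly expressed relative of Hmga2, had 14.6 and 10.0 CPM in knockdown libraries and 12.8 and 14.8 CPM in control libraries. The groups overlapped, and the log2 fold change was -0.16 ± 0.26 (interval -0.72 to 0.39; edgeR adjusted p = 0.85). Its uncertain counting, given above, bears on this value too.

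The Igf2bp genes encode proteins that bind and stabilise messages. Igf2bp1 had 890 and 748 CPM in knockdown libraries and 886 and 716 CPM in control libraries, the most reads of the 9 genes. The log2 fold change was 0.03 ± 0.16 (interval -0.31 to 0.38; edgeR adjusted p = 0.97). With the same correction it was 0.24 ± 0.13 (adjusted p = 0.50).

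Igf2bp2, a regulator of metabolic messages, had 67.6 and 69.2 CPM in knockdown libraries, inside the 66.4 and 76.2 CPM of the controls. Its log2 fold change was -0.06 ± 0.15 (interval -0.39 to 0.27; edgeR adjusted p = 0.92). Igf2bp3, the most strictly fetal of the 3, had 47.4 and 51.2 CPM in knockdown libraries and 56.5 and 52.4 CPM in controls. Both knockdown libraries were lower than both controls, narrowly, and the log2 fold change was -0.14 ± 0.16 (interval -0.49 to 0.20; edgeR adjusted p = 0.77).

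Mycn encodes the MYC-family transcription factor N-MYC. It had 173 and 176 CPM in knockdown libraries, close to each other, and 110 and 143 CPM in control libraries. Both knockdown libraries lay above both controls, which differed from each other by 1.30-fold. The log2 fold change was 0.47 ± 0.16 (interval 0.13 to 0.81; edgeR adjusted p = 0.27). Of all tested genes, 9.99% had a higher log2 fold change and 3.97% a lower p. It was 0.29 without control library 1, the lower of the controls, with an adjusted p of 0.75, the highest among the fits on group alone, which went down to 0.0918 with no filter.

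**Figure D4:**
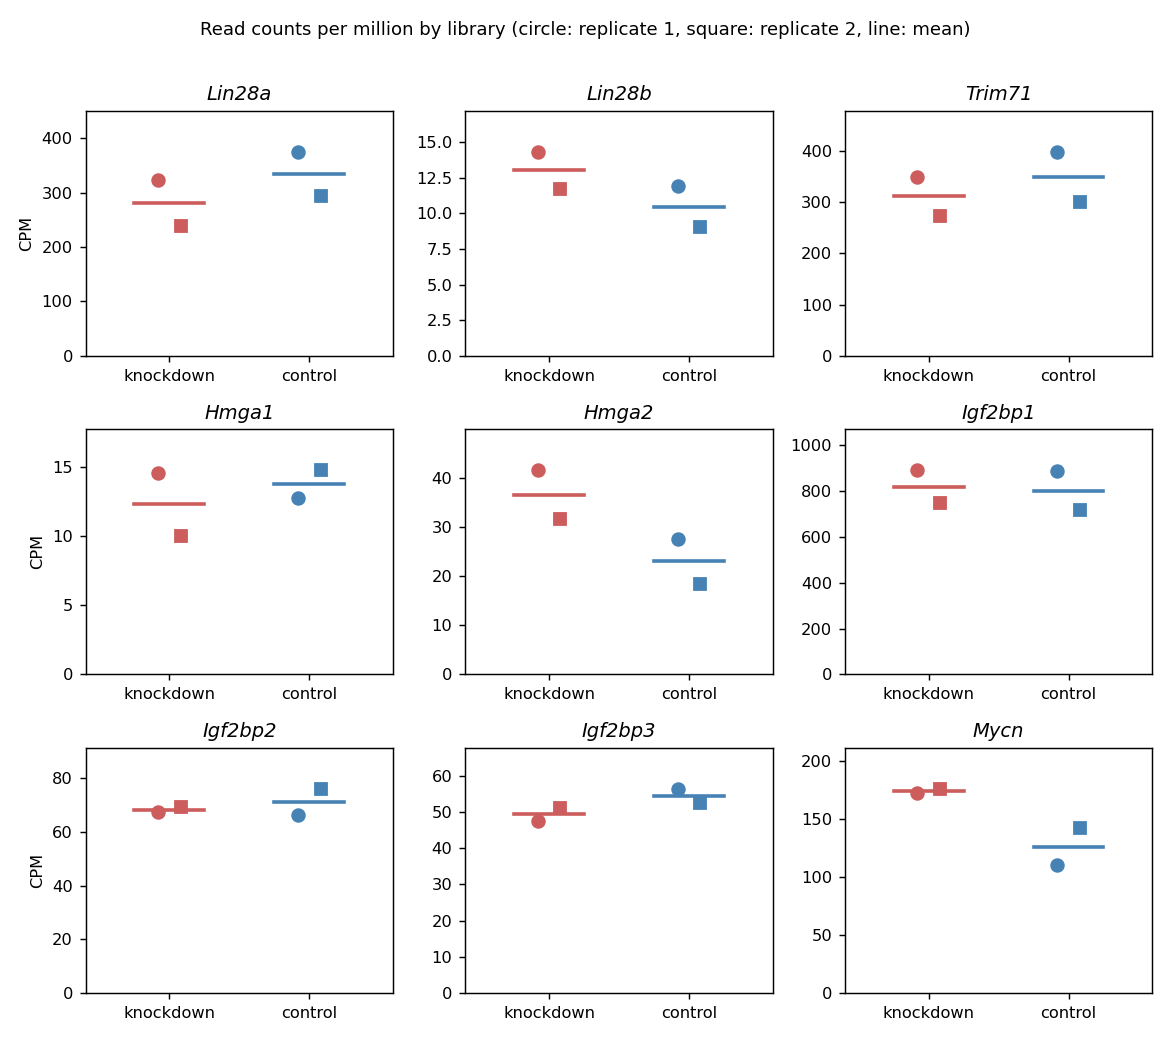
CPM of each gene in each library, knockdown left of control, with a line at the mean of 2 libraries and every axis starting at 0. In Hmga2 (41.6 and 31.6 against 27.6 and 18.5 CPM) and Mycn (173 and 176 against 110 and 143 CPM) both knockdown libraries lie above both controls, and in Igf2bp3 both lie below.

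Libraries of a group could differ well beyond counting error. Lin28a, Trim71 and Igf2bp1, for which the exact Poisson intervals of the libraries of a group did not meet, differed between the knockdown libraries by 1.35-, 1.28- and 1.19-fold and between the controls by 1.28-, 1.33- and 1.24-fold. Hmga2, whose intervals did not meet in either group as well, differed by 1.32- and 1.49-fold. For Hmga1 they did not meet in the knockdown libraries (1.46-fold). Igf2bp3 was the steadiest, at 1.08-fold in either group. Igf2bp2 and Mycn were alike in the knockdown libraries (1.02-fold each) and apart in the controls (1.15- and 1.30-fold), where their intervals did not meet either.

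A wider set of possible let-7 targets can be read from sequence alone. Of the tested genes, 17 held 5 or more let-7 matches, a minimum set after the matches of the 9 genes were known. They include Hmga2, Trim71, Igf2bp1 and Lin28b. Of these 17, 7 had a log2 fold change above 0 and 10 below, with a median of -0.11 and a range of -0.52 to 0.67, and Hmga2 was the highest. The 4 genes described here that are among them had 3 above 0 and 1 below, with a median of 0.17, so most values below 0 came from the others. The median was -0.002 over all tested genes and -0.14 in the longest of the 5 transcript length groups. The part of length in the values of the 17 was not tested. The most matches were in Nr6a1, which encodes a nuclear receptor of the early embryo (8 matches, log2 fold change -0.13 ± 0.16), and in D10Wsu102e (8 matches in an annotated 3′ UTR of 122583 bases, log2 fold change -0.11 ± 0.20). The lowest value was that of Trim6, another TRIM-family ubiquitin ligase gene, with 162 and 150 CPM in knockdown libraries and 252 and 195 CPM in controls (-0.52 ± 0.16, edgeR adjusted p = 0.23). At an unadjusted p under 0.05, 1 was higher and 3 were lower, where 6.18% of all tested genes were higher and 5.43% lower. EdgeR called 0 of 17 at an adjusted p under 0.05, and 0.0833% of all tested genes.

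**Figure D5:**
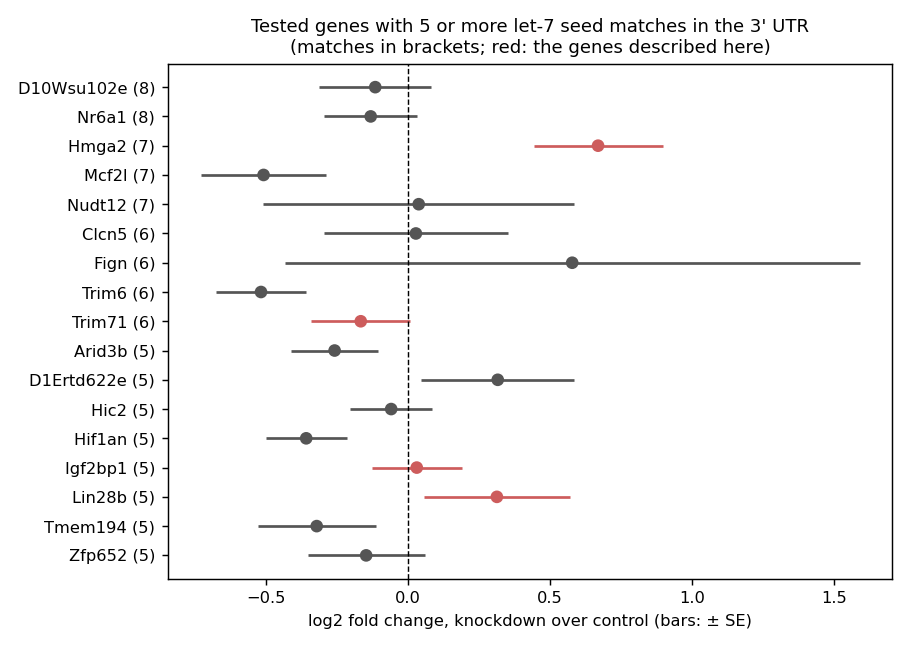
Log2 fold change (knockdown over control, ± SE) of the 17 tested genes with 5 or more let-7 seed matches in the 3′ UTR, with the number of matches in brackets and the genes described here in red. Hmga2 has the highest value, 0.67, and Trim6 the lowest, -0.52.

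The let-7 precursors themselves were almost unseen in these poly(A) libraries. Of 14 rows for let-7 and miR-98 precursors and their host transcripts, 11 had 0 reads in every library. Mirlet7g had 7 reads in knockdown library 2 and 0 in the others, and Mirlet7i had 1 read in knockdown library 1 and 1 in control library 2. A count of 0 allows up to 3 counts. Huwe1, a ubiquitin ligase gene that hosts a let-7 and a miR-98 hairpin, had 557 and 402 CPM in knockdown libraries and 769 and 488 CPM in controls, with a fold change of -0.39 ± 0.22 on the log2 scale (edgeR adjusted p = 0.53). Mature let-7 was not measured.

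Genes that make, load or destroy let-7 did not pass the test. Of 23 in the files 22 were tested, 11 had a log2 fold change above 0 and 11 below, and the median was -0.02. EdgeR called 0 of them, and 3 were higher and 5 lower at an unadjusted p under 0.05. Over all tested genes, beside this and each following list, 0.0833% were called, and 6.18% were higher and 5.43% lower at that p. Values with ± in this and the following lists are log2 fold changes and their SE. The lowest p values belonged to Tnrc6c (80.9 CPM in knockdown and 129 CPM in control libraries, -0.67 ± 0.17) and Tnrc6a (66.4 CPM in knockdown and 100.5 CPM in control libraries, -0.60 ± 0.16), which encode GW182 scaffolds of the silencing complex, with adjusted p of 0.17 and 0.18. Eif2c2, the older symbol of Ago2, the slicing Argonaute, stood at -0.50 ± 0.20, and the RNA helicase gene Ddx5 at 0.36 ± 0.15 (adjusted p = 0.36 each). Of the genes that act with LIN28, Zcchc11 (TUT4) stood at 0.18 ± 0.18, Zcchc6 (TUT7) at -0.18 ± 0.18 and Dis3l2 at -0.56 ± 0.23. The last 3 were picked for their role after their values were seen.

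Further reported let-7 targets were spread to both sides. Of 46 tested, 19 had a log2 fold change above 0 and 27 below, and the median was -0.08. EdgeR called 0, with 4 higher and 3 lower at an unadjusted p under 0.05. The shares of all tested genes at that p were 6.18% higher and 5.43% lower. Ccnd2, a G1 cyclin gene with 3 let-7 matches, averaged 12.9 CPM in knockdown and 34.9 CPM in control libraries (-1.43 ± 0.35, adjusted p = 0.18). The DNA repair gene Ercc6 stood at -0.67 ± 0.22, the homeobox gene Pbx3 at 0.92 ± 0.33 and the cell cycle factor gene E2f5 at 0.64 ± 0.25, with edgeR adjusted p of 0.25, 0.31 and 0.35.

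Reported targets of the TRIM71 protein were also on both sides, 3 above 0 and 4 below, with 0 of 7 called (0.0833% of all tested genes were). Egr1, an immediate-early transcription factor gene, stood at 0.76 ± 0.27 (33.3 CPM in knockdown and 19.7 CPM in control libraries) and Eif2c2 as above. The cell cycle inhibitor gene Cdkn1a stood at 0.04 ± 0.18, the pocket protein genes Rbl1 and Rbl2 at -0.29 ± 0.24 and -0.45 ± 0.30, the splicing regulator gene Mbnl1 at -0.33 ± 0.25 and Shcbp1 at 0.16 ± 0.21. Their edgeR adjusted p ran from 0.32 for Egr1 to 0.97 for Cdkn1a. The TRIM-NHL relatives of Trim71 all had values below 0, from -0.03 ± 0.23 for Trim3 and -0.09 ± 0.19 for Trim32 to -0.33 ± 0.25 for Trim2 and -0.76 ± 0.50 for Trim56, and 0 of 4 were called or had an unadjusted p under 0.05.

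Among the cold shock domain genes, relatives of Lin28 by that RNA-binding domain, Ybx1 (0.20 ± 0.15), Csda (0.20 ± 0.14) and Carhsp1 (0.23 ± 0.17) stood above 0 and Ybx2 (-0.20 ± 0.40) below, with edgeR adjusted p of 0.62 to 0.89, and none of these was called. Csdc2 had too few reads to test.

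Among messages that IGF2BP proteins bind, the noncoding RNA gene H19 stood at 0.53 ± 0.17 (72.6 CPM in knockdown and 50.4 CPM in control libraries, edgeR adjusted p = 0.25), and Igf2r, the gene of the IGF2-clearing receptor, at -0.36 ± 0.16 (adjusted p = 0.40). Igf2 itself, a growth factor gene, was low, at 1.65 CPM in knockdown and 1.68 CPM in control libraries, with -0.03 ± 0.52. Actb (0.19 ± 0.15), Myc (0.06 ± 0.20) and Cd44 (-1.08 ± 0.86, on average 0.367 CPM in knockdown and 0.786 CPM in control libraries) did not pass either, and 0 of 6 were called.

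In the MYC and MAX network, whose proteins pair with or oppose N-MYC, 4 of 12 stood above 0 and 8 below, with a median of -0.13 and 0 called. Mxd1, which encodes an antagonist of MYC, averaged 4.66 CPM in knockdown and 7.98 CPM in control libraries (-0.78 ± 0.30, edgeR adjusted p = 0.35) and was the only one with an unadjusted p under 0.05. At that p 5.43% of all tested genes were lower and 6.18% higher. Mga stood at -0.43 ± 0.29, Zbtb17 at 0.22 ± 0.16 and Mxi1 at -0.24 ± 0.18. Max, the partner of N-MYC, stood at 0.06 ± 0.14; it was picked for its role after its value was seen.

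For the most abundant gene per length and for the one with the largest difference, the genes with the most similar course over the 4 libraries were found as the smallest root mean square distance of centred log2 CPM, among 9772 genes with a mean of at least 5 CPM. Nearest to Igf2bp1 were Ubr3, a ubiquitin ligase gene (distance 0.00657), Ccnl2, a cyclin L gene (0.0115), and Clasp1, a microtubule-binding protein gene (0.0116). Nearest to Hmga2 were Fbxo17, an F-box gene (0.0367), the ubiquitin ligase gene G2e3 (0.0461) and Mllt11 (0.0601), whose log2 fold changes were 0.64 ± 0.26, 0.69 ± 0.26 and 0.70 ± 0.25. With 4 libraries such likeness is a description only.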

How the data were processed

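Raw read counts per gene symbol were deposited, 1 file per library, without normalization. Per the submitters' processing notes, build mm9, TopHat and HTSeq were used, along with bedtools and SAMtools. No version, annotation or strand setting is given in the sources used here. Libraries were poly(A)-selected and strand-specific (dUTP), per the labels' protocols. In each file 5 tallies that name no gene were left out. Of the sum of gene counts and tallies, 26.1% to 32.8% were tallied as not uniquely aligned, 6.39% to 7.61% as outside genes and 0.459% to 0.600% as ambiguous. None of these enters a gene count.

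The test was that of edgeR 4.0.16 under R 4.3.3 (filterByExpr with minimum count 10, TMM, robust quasi-likelihood fit on group alone, all 4 libraries, Benjamini-Hochberg threshold 0.05, two-sided), with limma 3.58.1 and DESeq2 1.42.0 as alternatives. An SE is the size of the log2 fold change divided by the root of F. The biological coefficient of variation was 17.4%. The code was tested on simulated data of 12978 genes. At true log2 fold changes of 1 and -1 it called 78% and 57.1% of the changed genes, and at 2 and -2 it called 94% and 81.6%. It also called 19 unchanged genes, beside 39 and 28 changed ones at 1 and -1 and 47 and 40 at 2 and -2. These rates belong to the simulated settings, and the power of the test in these 4 libraries was not measured. Between the libraries of a group the chi-square over its degrees of freedom was 20.54 (knockdown) and 25.36 (control), far beyond sampling noise. Transcript lengths, 3′ UTRs and site sequences came from GENCODE M21 (GRCm38, not the files' build) by symbol, 23005 of 23366 matched (98.5%). The members and lists were chosen with earlier results of these data known. Named were the 9 genes, Cyrano, up to 4 members of each list by lowest p (all of lists up to 7, and called ones), and the 3 genes most like 2 members. Alternatives were other scalings, filters and tools, each library left out, the replicate number as a block, a length and GC offset, and leaving out Rn45s. Some list members are not reported here.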

Additional observations from a re-analysis of the deposited data

How the results depend on the processing

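Over 16 alternatives, Lin28a, Lin28b, Hmga2, Igf2bp3 and Mycn kept the sign of their log2 fold change in all. Trim71 was above 0 without control library 1 (0.054), without knockdown library 2 (0.005) and under the offset for length and GC (0.078, or 0.083 with the replicate block as well). Igf2bp2 was above 0 without control library 2 (0.04) and with that offset (0.044, and 0.048 with the block), Hmga1 was above 0 without knockdown library 2 (0.088), and Igf2bp1 was below 0 without control library 2 (-0.12) or knockdown library 1 (-0.11). The causes were not tested. Over left-out libraries the values ran from -0.49 to -0.05 for Lin28a, 0.13 to 0.52 for Lin28b, -0.36 to 0.054 for Trim71, -0.46 to 0.088 for Hmga1, 0.41 to 0.98 for Hmga2, -0.12 to 0.19 for Igf2bp1, -0.16 to 0.04 for Igf2bp2, -0.20 to -0.09 for Igf2bp3, 0.29 to 0.66 for Mycn and -2.79 to -2.08 for Cyrano, and the median of the 9 from -0.094 to 0.088.

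Of the 9 genes, 1 was called with no filter on low counts (Hmga2, 0.67, edgeR adjusted p = 0.0497) and 2 with the replicate number as a block: Hmga2 (0.68, adjusted p = 0.00398) and Mycn (0.48, 0.0112), and with block and offset together (0.67, 0.0155, and 0.51, 0.0144). Same-numbered libraries deviated together (r = 0.244 across genes), but 2 pairs and a shared number alone do not pair them. The median of the 9 was 0.078 with the offset and 0.083 with offset and block, against -0.06. For Cyrano, limma-voom made no call (-2.42, adjusted p = 0.0512), nor did edgeR without either control library (adjusted p = 0.12 and 0.0567). Over all genes edgeR called 5 higher and 6 lower. The counts higher and lower were 504 and 451 with the block, 3 and 4 with the offset, 336 and 255 with both, 174 and 158 unfiltered, 71 and 62 in DESeq2, 32 and 18 when scaled by library size only (66.9% of those at an unadjusted p under 0.05 were then higher, against 816 of 1533), 10 and 16 under upper-quartile scaling, 2 and 4 under RLE scaling, likewise 2 and 4 under the CPM minimum, 1 and 3 without robust estimation, 1 and 2 in limma-voom, and 0 to 60 and 0 to 131 over left-out libraries. Depth limits Lin28b most, at 171 to 320 reads a library.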
